A study of Mus musculus with 3 samples.

Results

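The 5 genes that encode the subunits of interleukin-12 (IL-12), IL-23 and IL-27 are Il12a, Il12b, Il23a, Il27 and Ebi3. They were chosen by symbol, and each was found once among the 23997 gene rows. RNA was sequenced from macrophages of the colon, sorted from untreated male mice of the strain C57BL/6 as negative for Siglec-F, low for Ly6C and positive for CD64. All 3 genotypes carried Lyz2-Cre, a Cre recombinase driven in myeloid cells, so the control called WT is Lyz2-Cre alone. Tle3cKO mice were Tle3f/f Lyz2-Cre and Tle4cKO mice were Tle4f/f Lyz2-Cre, with floxed alleles of 2 Groucho-type corepressors. The labels give the age as 9 weeks in the protocol and as 8.9 weeks among the sample characteristics. Before RNA extraction the cells of 4 mice (WT), 3 mice (Tle3cKO) and 4 mice (Tle4cKO) were pooled, so each genotype is 1 library. There is no replicate spread, and no value below has a standard error or a p-value.

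Cytokines of the IL-12 family are heterodimers of an alpha subunit, shaped like a helical cytokine, and a beta subunit, shaped like a soluble cytokine receptor. IL-12 pairs the Il12a and Il12b products, IL-23 pairs the Il23a and Il12b products, and IL-27 pairs the Il27 and Ebi3 products. The Ebi3 and Il12a products can also pair, as IL-35. IL-12 drives interferon-gamma production by T and NK cells, IL-23 sustains IL-17 and IL-22 production, and IL-27 can both promote and restrain T cell responses. Resident macrophages of the gut wall are known for abundant IL-10 and for weak IL-12 output when they meet bacterial products, and in the gut dendritic cells are a further source of these subunits.

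The regions just before the start sites of the beta subunit genes Il12b and Ebi3 are shown because these were the subunit genes that reached a mean of 1 FPKM (fragments mapped per kilobase of transcript, corrected for library size). Each is the 250 bases before the RefSeq start on the plus strand of GRCm38.p6, at chr11:44399813-44400062 for Il12b and chr17:55952373-55952622 for Ebi3. Capitals mark matches to an NF-kB core (GGGAATTT), a C/EBP element (TTGCAAT) and a TATA box (TATANAA), each searched on both strands.
Il12b: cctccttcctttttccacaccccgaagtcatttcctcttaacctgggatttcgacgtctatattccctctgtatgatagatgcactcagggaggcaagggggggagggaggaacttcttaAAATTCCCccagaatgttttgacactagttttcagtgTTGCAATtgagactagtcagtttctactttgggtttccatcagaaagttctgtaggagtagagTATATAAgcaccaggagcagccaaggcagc
Ebi3: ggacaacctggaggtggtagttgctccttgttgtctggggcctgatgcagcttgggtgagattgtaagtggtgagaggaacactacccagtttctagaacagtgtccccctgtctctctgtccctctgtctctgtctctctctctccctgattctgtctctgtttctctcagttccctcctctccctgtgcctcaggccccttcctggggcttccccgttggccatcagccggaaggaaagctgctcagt
In Il12b the NF-kB core lay 130 to 123 bases before the start, in reverse orientation, the C/EBP element 93 to 87 bases before it, and the TATA box 30 to 24 bases before it. The same 3 patterns were found in 0.843%, 1.96% and 10.4% of the 32851 promoter windows of the same length. Ebi3 held none of them. The first 2 patterns were picked with published work on the Il12b promoter in mind, so their presence there is no finding. Patterns of DNA-binding families that include partners of Groucho corepressors were searched as well. The HES N box (CACNAG) was found at 2 places in Il12b, 108 to 103 and 22 to 17 bases before the start, and in 36.7% of all windows. The RUNX pattern (TGTGGT, 14.0% of windows) and the TCF/LEF pattern (CTTTGAN, 13.8%) were found in neither gene. An IRF pattern (GAAANNGAA, 7.13%) and an AP-1 pattern (TGANTCA, 6.75%) were not in these windows either. A match here is a run of letters and says nothing of binding. Il12a has 2 windows in the same set, not shown. The upstream window held the C/EBP element 156 to 150 bases before its start. The other held the RUNX pattern 126 to 121 bases before its start and the HES N box at 2 places. Il23a and Il27 are without an entry in that set.

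The libraries were of similar but unequal depth. FPKM totals were between 569961 and 610714, and the steps between the lowest values gave the library labelled Tle3cKO 0.968 and Tle4cKO 1.21 times the depth of WT, with the absolute depth unknown. Tle3 stood at 38.6 FPKM (WT), 70.7 (labelled Tle3cKO) and 46.9 (Tle4cKO), so the targeted gene was not lower where its label says it was deleted. A gene-level value does not show the deleted exons, but every direction involving that library or WT carries this doubt. Tle4 stood at 8.50, 11.0 and 5.80 FPKM in the same order. All 12 listed macrophage markers were detected in every library, at very unlike levels. C1qb stood at 1443, 1191 and 1309 FPKM, Cx3cr1 at 8.35, 7.64 and 11.4, and Mertk at 4.46, 7.65 and 6.17. Fcgr1, the gene of CD64, stood at 33.3, 36.0 and 39.2 FPKM. Dendritic cell markers were present too, with all 17 listed genes detected in each library. Their summed values of 796, 687 and 817 FPKM came mostly from Ccr7, Mgl2 and Sirpa. Clec9a and Flt3 were at 5.35 and 11.2 FPKM in WT. In pooled cells of this kind, fewer cells of a type and less RNA per cell cannot be told apart.

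The 5 subunit genes spanned a wide range of levels, with Ebi3 far above the others and Il12a close to the lowest detected genes. In FPKM, which allows levels of different genes to be compared per transcript length, the order in WT was Ebi3, Il12b, Il27, Il23a and Il12a. The order was the same in Tle4cKO, and in the library labelled Tle3cKO it differed only in that Il23a stood above Il27. Of the genes detected in WT, 86.5% lay below Ebi3, 50.2% below Il12b, 34.3% below Il27, 29.8% below Il23a and 13.8% below Il12a. Only Ebi3 and Il12b, 2 of the 5, reached the mean of 1 FPKM over the libraries that was required for counts over all genes.

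**Figure D1:**
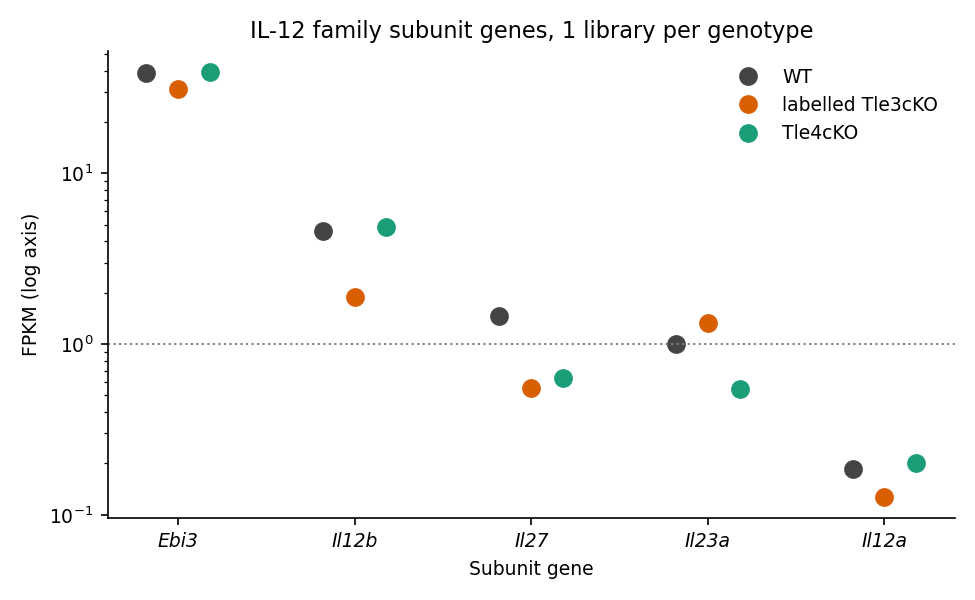
FPKM on a log axis for each subunit gene, with 1 point per library and genotype and no error, since each genotype is 1 pooled library; the dotted line is 1 FPKM. Il12b is at 4.61 and 4.83 FPKM in WT and Tle4cKO and at 1.88 in the library labelled Tle3cKO, while Il12a is at most 0.201 in the 3 libraries.

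Il12b had the widest range of the 5 on the log2(FPKM + 1) scale, with a low value in the library labelled Tle3cKO. It encodes the beta subunit shared by IL-12 and IL-23 and maps to chromosome 11, 44400063 to 44414033, plus strand (mm10, ENSMUSG00000004296.14). It stood at 4.61 FPKM (WT), 1.88 (labelled Tle3cKO) and 4.83 (Tle4cKO). WT and Tle4cKO were therefore nearly equal, and the library labelled Tle3cKO was 2.45-fold below WT in plain FPKM. As log2 ratios of FPKM + 1, a scale on which low genes differ by too little, the values were -0.96 for the library labelled Tle3cKO to WT, 0.06 for Tle4cKO to WT and 1.02 for Tle4cKO to the library labelled Tle3cKO. Genes past 2-fold on that scale, a log2 ratio of 1 or more either way, were rare: 0.207% of the 11114 genes whose mean reached 1 FPKM were that much lower in the library labelled Tle3cKO than in WT. Il12b came just short of that line there, and passed it in Tle4cKO against the library labelled Tle3cKO, where 0.207% of genes were at least 2-fold higher. Of the genes with a mean of 2 to under 8 FPKM, 0.546% were at least 2-fold lower in plain FPKM in the library labelled Tle3cKO than in WT, as Il12b was, and 0.517% were at least 2-fold higher in Tle4cKO than in that library. None of the subunit genes passed 2-fold on the log2(FPKM + 1) scale in Tle4cKO against WT, as 0.648% of genes did in either direction.

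Ebi3, the beta subunit of IL-27, was the most abundant of the 5 and varied least in proportion. It maps to chromosome 17, 55952640 to 55957022, plus strand (ENSMUSG00000003206.7). It stood at 38.8 FPKM (WT), 31.1 (labelled Tle3cKO) and 39.2 (Tle4cKO). WT and Tle4cKO were again close, and the library labelled Tle3cKO was lowest, as for Il12b but by a smaller step. Log2 ratios were -0.31, 0.01 and 0.33 for the library labelled Tle3cKO to WT, Tle4cKO to WT, and Tle4cKO to the library labelled Tle3cKO. Of the genes with a mean of 20 to under 80 FPKM, 6.15% were at least 1.2-fold lower in plain FPKM in the library labelled Tle3cKO than in WT, as Ebi3 was, and 5.37% were at least 1.2-fold higher in Tle4cKO than in that library, as Ebi3 also was. This threshold was picked after the Ebi3 values were seen. The deposited row of Ebi3 shares its locus with 2 other rows, Ccdc94 and Gm16712. The antisense gene Gm16712 lies across 2252 bases of the Ebi3 gene and stood at 3.72, 1.62 and 2.48 FPKM in the same order of libraries. The sources used here do not say whether strand was used in counting, so reads of the overlapping parts cannot be assigned with certainty.

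Il27, the alpha subunit of IL-27, was highest in WT and lower in both knockout-labelled libraries. It maps to chromosome 7, 126589010 to 126594941, minus strand (ENSMUSG00000044701.5), where its 3' end shares 103 annotated bases with Apobr on the other strand, although the deposited loci of the 2 rows do not overlap. It stood at 1.47 FPKM (WT), 0.550 (labelled Tle3cKO) and 0.635 (Tle4cKO). These are 2.67-fold and 2.31-fold below WT in plain FPKM, and both contrasts rest on the same WT library. On the log2(FPKM + 1) scale the ratios were -0.67 and -0.59, and 0.08 between the 2 knockout-labelled libraries. At this level such gaps were common. Of the genes with a mean of 0.5 to under 2 FPKM, 4.31% were at least 2-fold below WT in the library labelled Tle3cKO, and 6.05% were so in Tle4cKO. The row of Apobr, at 16.3, 19.5 and 16.8 FPKM, did not follow that of Il27.

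Il23a, the alpha subunit of IL-23, had another order, lowest in Tle4cKO and highest in the library labelled Tle3cKO. It maps to chromosome 10, 128296139 to 128298752, minus strand (ENSMUSG00000025383.2). It stood at 0.995 FPKM (WT), 1.32 (labelled Tle3cKO) and 0.547 (Tle4cKO). The log2 ratios were 0.22 for the library labelled Tle3cKO to WT, -0.37 for Tle4cKO to WT and -0.59 for Tle4cKO to the library labelled Tle3cKO. In plain FPKM the last of these is a 2.42-fold gap, in a band of levels (0.5 to under 2 FPKM) where 7.67% of genes were at least 2-fold lower in the same contrast. Il23a was the only subunit gene with a higher value in the library labelled Tle3cKO than in WT.

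Il12a, the alpha subunit of IL-12, was barely detected. It maps to chromosome 3, 68690644 to 68698547, plus strand (ENSMUSG00000027776.12), and stood at 0.185 FPKM (WT), 0.128 (labelled Tle3cKO) and 0.201 (Tle4cKO). After scaling by relative depth these values stood to each other as 3 to 2 to 4, each within 0.822%. If these steps are whole fragments, the row may rest on as few as 9 in all or on a multiple of that. The gene has 2 coding transcripts, so the steps need not be whole fragments. With the absolute depth unknown and no counting error to set beside them, differences in Il12a were not read.

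**Figure D2:**
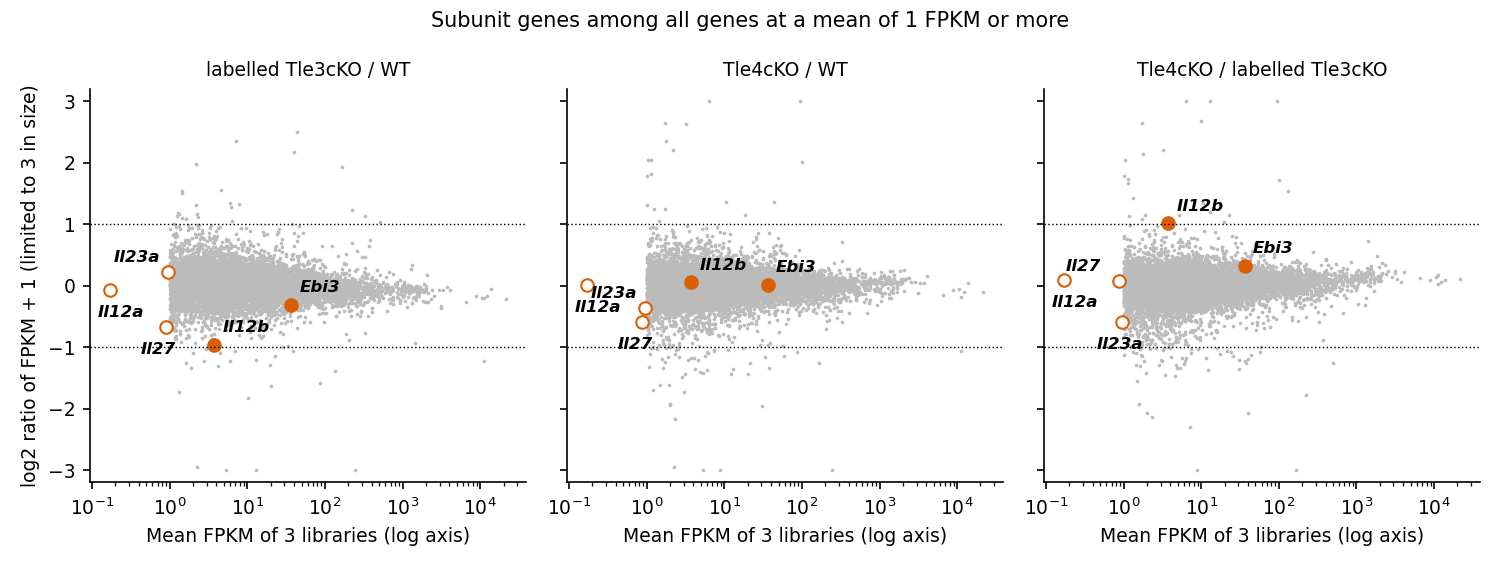
Log2 ratio of FPKM + 1 against the mean FPKM of the 3 libraries on a log axis, 1 grey point per gene averaging 1 FPKM or more, limited to 3 in size; orange points are the subunit genes, open where their mean is below 1 FPKM, and dotted lines mark 2-fold. Il12b lies at the edge of the cloud in both contrasts with the library labelled Tle3cKO (-0.96 and 1.02) and at 0.06 for Tle4cKO to WT.

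Counted together, 4 of the 5 subunit genes had a lower value in the library labelled Tle3cKO than in WT, 2 of 5 in Tle4cKO than in WT, and 1 of 5 in Tle4cKO than in the library labelled Tle3cKO. These counts include Il12a, whose differences were not read, and the share of all genes with a lower value was not counted. The median log2 ratio of the 5 was -0.31, 0.01 and 0.09 in these contrasts, beside -0.01, -0.003 and 0.01 over all genes at a mean of at least 1 FPKM. The median of 0.09 is the value of Il12a itself. At 1.5-fold on the log2(FPKM + 1) scale, Il12b and Il27 were lower in the library labelled Tle3cKO than in WT, where 1.09% of all genes with a mean from 1 FPKM upward were. Il27 alone passed 1.5-fold in Tle4cKO against WT, on the lower side with 1.7% of genes. Between the 2 knockout-labelled libraries Il12b was past 1.5-fold on the higher side in Tle4cKO (0.891% of genes) and Il23a on the lower side (2.14%). Il27 and Il23a lie below the level that those shares cover, and the shares for genes of their own level are given above.

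**Figure D3:**
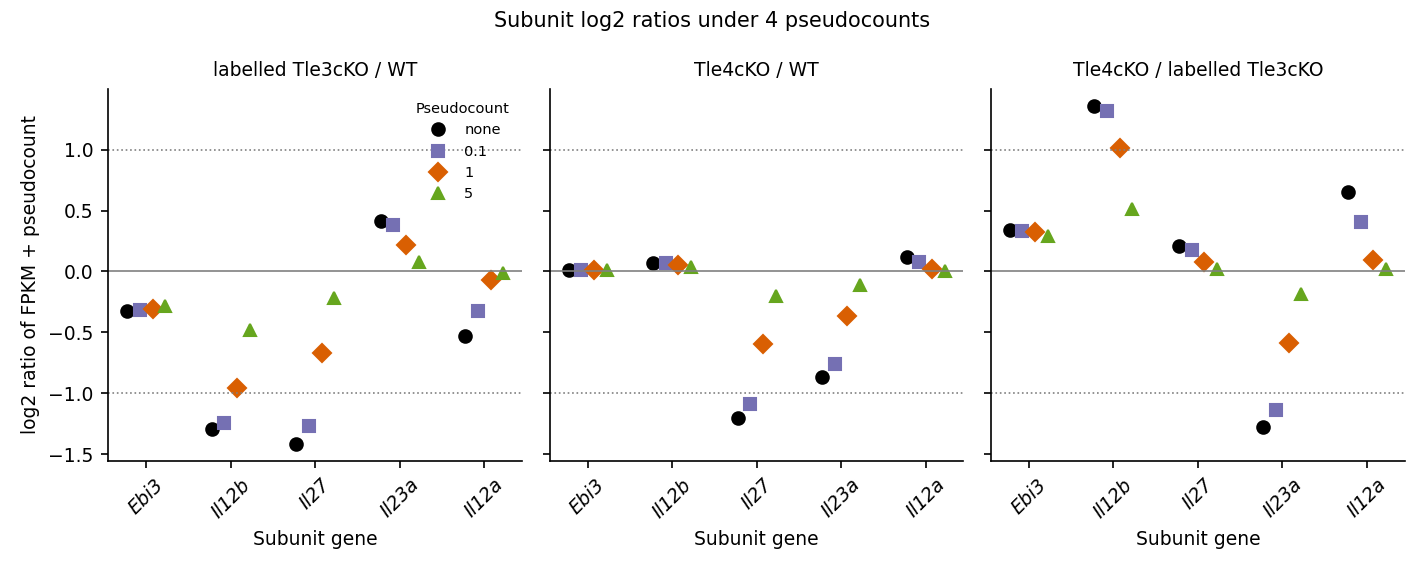
Log2 ratios of the 5 subunit genes in 3 contrasts, computed with no pseudocount and with 0.1, 1 and 5 added to FPKM; dotted lines mark 2-fold. Il12b and Il27 in the library labelled Tle3cKO against WT move from -1.29 and -1.41 with no pseudocount to -0.96 and -0.67 with 1 added, while Ebi3 hardly moves.

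The balance of partner transcripts differed between the 3 libraries, with no replicate to set beside the differences. Il12b stood at 4.63 times the FPKM of Il23a, its IL-23 partner, in WT, at 1.42 times in the library labelled Tle3cKO and at 8.82 times in Tle4cKO. Il12b was thus above Il23a in all 3, by the smallest factor in the library labelled Tle3cKO, where Il12b was low and Il23a high. Against Il12a, its IL-12 partner, Il12b stood at 24.9, 14.7 and 24.0 times, factors that carry the uncertainty of the low Il12a values. Ebi3 stood at 26.5 times the FPKM of Il27 in WT, 56.5 times in the library labelled Tle3cKO and 61.8 times in Tle4cKO. The factors over Il23a and Il27 are uncertain too. Both genes were below a mean of 1 FPKM, where 2-fold gaps between libraries were more common than at higher levels. Beta subunit transcripts thus exceeded those of the alpha partners in every library. Ebi3 stood at 8.42, 16.5 and 8.13 times the level of Il12b, so the factor between the beta subunit genes was nearly the same in WT and Tle4cKO.

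The profile of Il12b over the 3 libraries was set beside those of 10605 other named genes whose mean reached 1 FPKM, by Euclidean distance between log2(FPKM + 1) values centred on each gene's mean. The nearest was Cxcl9, an interferon-gamma-induced chemokine for T cells, at 17.8 FPKM (WT), 9.48 (labelled Tle3cKO) and 18.3 (Tle4cKO) (distance 0.11). Next came Ccr2, the chemokine receptor of monocytes, at 28.3, 12.3 and 28.3 FPKM (distance 0.13). Serpina3f, a serine protease inhibitor, stood at 1.37, 0.298 and 1.84 FPKM (distance 0.15). Hist1h4b, a replication-dependent histone gene, and Ptpla, an enzyme of very long chain fatty acid synthesis, completed the 5 nearest, each at a distance of 0.16. With 3 libraries, any gene that is low in 1 of them shows this shape, and nothing about shared control follows from it. Il12b was the only subunit gene at a mean of at least 1 FPKM whose range over the libraries reached 0.5 on the log2 scale.

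**Figure D4:**
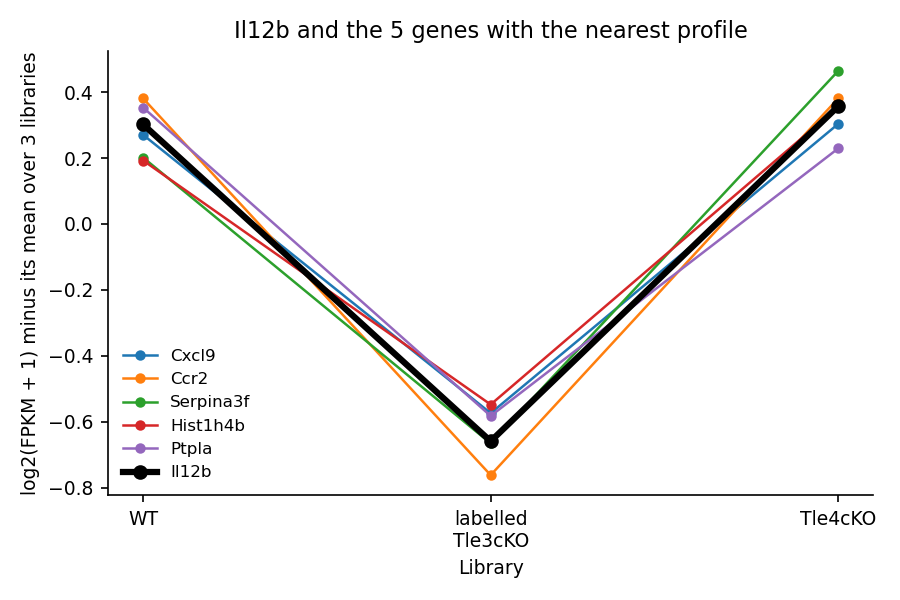
Log2(FPKM + 1) of Il12b (black) and of the 5 genes nearest to it, each minus its own mean over the 3 libraries, with lines joining the values of 1 gene. All 6 are lowest in the library labelled Tle3cKO, where Il12b is 0.96 below WT.

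Markers of other cell types that can make these subunits were read in the same libraries. Ccr7, the chemokine receptor of mature migrating dendritic cells, stood at 305 FPKM (WT), 216 (labelled Tle3cKO) and 316 (Tle4cKO), the same order of libraries as Il12b. Without Ccr7 the other 16 dendritic cell markers summed to 490.5, 471 and 500.7 FPKM. Of the 17 markers, 11 were lower and 6 higher in the library labelled Tle3cKO than in WT. Their median log2 ratio was -0.09, beside -0.01 over all genes at a mean of at least 1 FPKM. None reached 1.5-fold, as few of all genes did in this contrast. Clec9a, a marker of cross-presenting dendritic cells, stood at 5.35, 4.50 and 7.61 FPKM, and the integrin gene Itgae at 8.74, 10.5 and 15.1. Flt3, the receptor for a dendritic cell growth factor, was highest in the library labelled Tle3cKO, at 11.2, 15.6 and 13.7 FPKM. Whether dendritic cells had a part in the lower Il12b value was not tested.

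Monocyte markers summed to 375, 370.3 and 384 FPKM over 9 genes, most of it from Plac8, S100a8 and S100a9. Against WT, 4 were higher and 5 lower in the library labelled Tle3cKO, and 5 were higher and 4 lower in Tle4cKO. Ccr2, 1 of these 9 and near Il12b in profile, stood at 28.3, 12.3 and 28.3 FPKM. It was past 2-fold lower in the library labelled Tle3cKO than in WT, as 0.207% of genes were. Ly6c2 stood at 9.38, 5.98 and 6.52 FPKM, Chil3 at 2.50, 0.989 and 0.0830, and F13a1 at 10.6, 17.5 and 12.7. Macrophage markers summed to 6399, 5820 and 6159 FPKM over 12 genes, of which 5 were higher and 7 lower than WT in each of the knockout-labelled libraries. Csf1r, the receptor of the growth factor CSF1, stood at 459, 406 and 387 FPKM, and Mertk, a receptor for apoptotic cells, at 4.46, 7.65 and 6.17. B cells are a known source of Ebi3. All 11 B and plasma cell markers were higher than in WT in both knockout-labelled libraries. Their median log2 ratios were 0.39 and 0.54, where the medians of all genes at a mean of at least 1 FPKM were -0.01 and -0.003. The markers summed to 281, 351 and 501 FPKM, mostly from Xbp1 and Igj. The B cell receptor gene Cd79a stood at 19.5, 33.9 and 29.9 FPKM, and the plasma cell genes Igj and Mzb1 were highest in Tle4cKO, at 46.9, 57.9 and 192 and at 6.48, 6.58 and 18.2. Markers of T, NK and innate lymphoid cells summed to 417, 425 and 405 FPKM, nearly all from Il7r and Cd4, with Cd3e at 0.401, 1.55 and 1.70. Granulocyte markers summed to at most 3.50 FPKM over 9 genes, with Camp, Epx and Mcpt4 listed at 0 throughout. Epithelial markers summed to 3.05, 6.55 and 26.1 FPKM over 10 genes, with Krt20 listed at 0 in WT. Markers of stroma, endothelium and glia summed to 261, 305 and 279 FPKM over 13 genes. The part of these cells in the subunit values was not tested.

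Receptors of the family were mostly low, apart from the chain shared with IL-6. Il6st, the signalling chain used by IL-27 and IL-6, stood at 101.7 FPKM (WT), 106 (labelled Tle3cKO) and 103.6 (Tle4cKO). Il27ra, the other chain of the IL-27 receptor, stood at 1.28, 1.71 and 1.36, and Il12rb2, the signalling chain for IL-12, at 3.91, 4.43 and 3.41. Il12rb1 (0.742, 1.34 and 0.662 FPKM) and Il23r (0.576, 1.26 and 0.552), which together bind IL-23, were below a mean of 1 FPKM. All 5 receptor genes had their highest value in the library labelled Tle3cKO. The 3 at a mean of at least 1 FPKM were within 1.5-fold of WT, as nearly all genes at that mean were.

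None of the 8 kinases and STAT factors below these receptors passed 1.5-fold in any contrast. Such steps were rare among the 11114 genes whose mean reached 1 FPKM. In the library labelled Tle3cKO against WT, 177 were that much higher and 121 lower. In Tle4cKO the numbers were 134 and 189 against WT, and 99 and 238 against the library labelled Tle3cKO. A short list with none past 1.5-fold is therefore ordinary, also for the activators, sensors and restraints below. Stat4, the main factor activated by IL-12, stood at 47.9, 46.6 and 48.4 FPKM. Jak2, the kinase bound by the receptors of IL-12 and IL-23, stood at 87.1, 72.3 and 75.0, and Tyk2, its partner, at 12.2, 10.5 and 11.0.

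Transcription factors known to activate Il12b or Il23a were abundant. All 17 were within 1.5-fold in all 3 contrasts, as nearly all genes were. Against WT, 15 of 17 were lower in the library labelled Tle3cKO and 14 of 17 were in that of Tle4cKO. The medians were -0.10 and -0.12, where the medians of all genes were -0.01 and -0.003. Equal FPKM totals moved the medians of all genes to 0.08 and 0.02, so small shifts depend on the scaling. Genes of like level were not counted for comparison. Rel, the NF-kB subunit c-Rel that Il12b requires in macrophages, stood at 156, 136 and 127 FPKM. Nfkb1, another NF-kB subunit, stood at 197, 161 and 162. Irf8, an interferon regulatory factor that activates Il12b, stood at 136, 119 and 148 FPKM, and Irf5, of the same family, at 175, 165 and 195. Irf4 stood at 13.2, 18.1 and 15.5. The part of these factors in the subunit values was not tested.

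Sensors that switch the family on were also within 1.5-fold, 12 of 12 in each contrast, as nearly all genes were. Clec7a, the beta-glucan receptor Dectin-1, stood at 407, 288 and 366 FPKM, and Nod2, a sensor of bacterial muramyl dipeptide, at 18.3, 13.3 and 14.2. Both were lowest in the library labelled Tle3cKO. Tlr2, the receptor for bacterial lipoproteins, was highest there, at 22.9, 31.6 and 25.2 FPKM. Ticam1, the adaptor TRIF, was highest in Tle4cKO, at 14.6, 15.2 and 19.7.

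Among the 16 genes listed here as restraints on the family none passed 1.5-fold either, which few genes of any kind did. Il10, the cytokine that most directly suppresses Il12b in macrophages, stood at 66.3 FPKM (WT), 90.0 (labelled Tle3cKO) and 61.1 (Tle4cKO). Its log2 ratios were 0.43, -0.12 and -0.55 in the 3 contrasts, and its part in the Il12b values was not tested. Socs1 and Socs3, feedback inhibitors of cytokine signalling, stood at 16.3, 15.4 and 13.2 and at 75.9, 71.2 and 60.9 FPKM, lowest in Tle4cKO. Atf3, a stress-induced repressor of cytokine genes, was lowest there as well, at 173, 170 and 139 FPKM.

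Related cytokines of the IL-6 branch were compared to see how the subunits stood among their relatives. The 5 of 9 genes at a mean of at least 1 FPKM were all lower than in WT in both knockout-labelled libraries, with medians of -0.21 and -0.15. Both contrasts share the WT library, and the medians of all genes at that mean were -0.01 and -0.003. Il6 stood at 22.5, 16.8 and 20.2 FPKM and Clcf1, a partner-dependent relative, at 29.6, 25.3 and 24.4. Lif stood at 1.99, 1.59 and 1.88. Cntf, at 4.19, 4.06 and 2.03, was past 1.5-fold lower in Tle4cKO than in both other libraries. Of all genes at a mean of at least 1 FPKM, 1.7% were that much lower than in WT and 2.14% than in the library labelled Tle3cKO. Lymphocyte genes that IL-12 and IL-23 are known to induce were mostly low. Of 9 such genes 4 averaged 1 FPKM or more, all 4 higher in the library labelled Tle3cKO than in WT and 2 of 4 higher in Tle4cKO. Their medians were 0.16 and -0.06, beside the -0.01 and -0.003 of all genes. Lower ones included Ifng at 0.0752, 0.235 and 0.123 FPKM and Il17a, listed at 0 except in Tle4cKO (0.231). Il22 had the highest mean of the 9, at 5.95, 6.69 and 3.43 FPKM. In Tle4cKO it was just below Il18rap, of the same list (3.46 FPKM). Gzmb, a cytotoxic granule protease, stood at 2.57, 3.47 and 2.16.

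**Figure D5:**
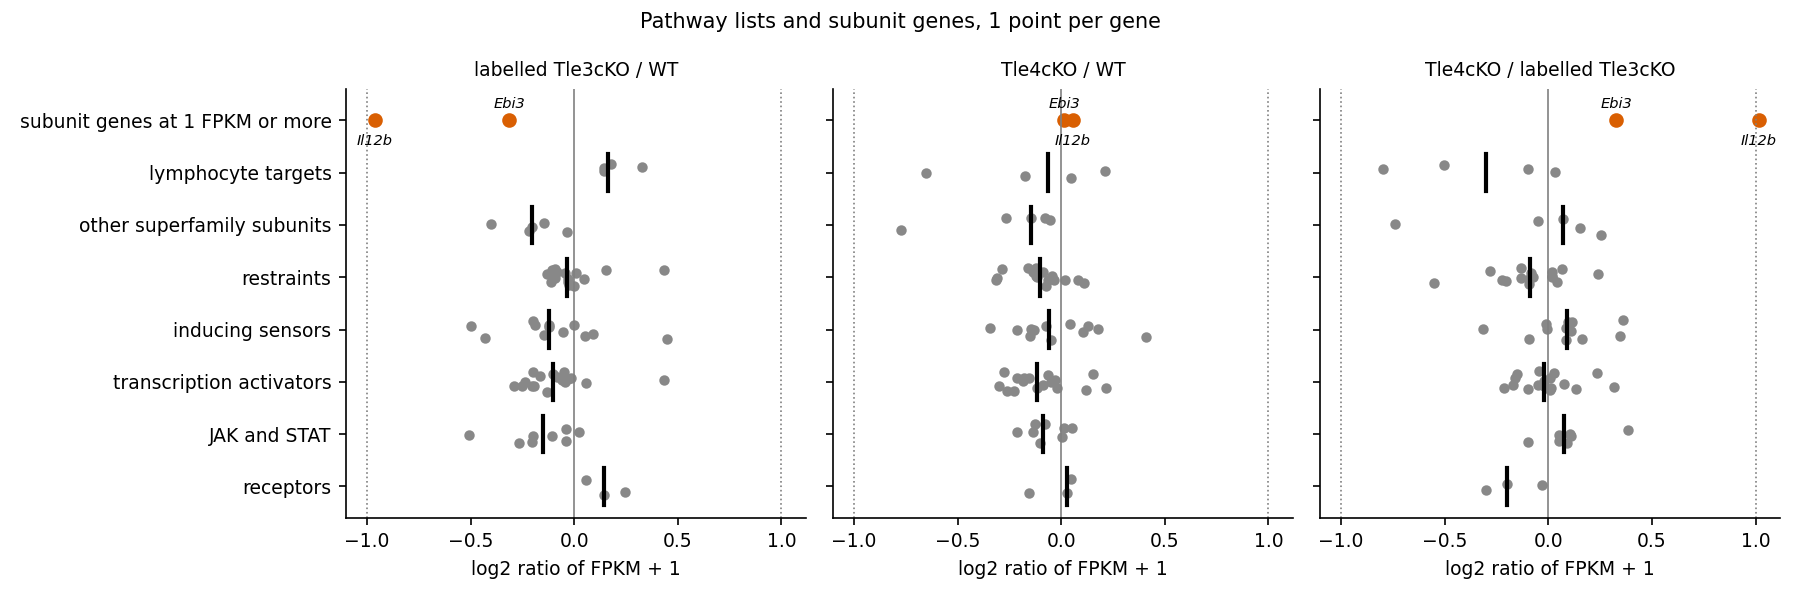
Log2 ratios of FPKM + 1 in 3 contrasts for the genes of 7 pathway lists that average 1 FPKM or more (grey, 1 point per gene; black bars are list medians) and for Il12b and Ebi3 (orange); dotted lines mark 2-fold. Il12b at -0.96 lies outside the range of every list in the library labelled Tle3cKO against WT.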

How the data were processed

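RNA was sequenced from pooled, sorted colonic macrophages of 3 genotypes, 1 library each, grouped by sample title. The authors deposited FPKM per gene, per the file headers. TopHat2 2.1.0, Cufflinks 2.2.1 and build mm10 are named, without roles, per the submitters' processing notes. FPKM are not counts, so no count model was used, and no test was possible with 1 library a group. From these values, log2 ratios of FPKM plus a pseudocount of 1 were computed for 3 contrasts, and genes past 1.5-fold and 2-fold were counted over the 11114 genes whose mean reached 1 FPKM. Plain FPKM ratios and shares within bands of level were added after the values were seen. Relative depth came from the commonest ratio of values below 0.3 FPKM (1846 and 1952 genes). The steps were tested on simulated data.

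The members and the 15 gene lists were chosen with earlier results of these data known. Beside the subunits, Tle3 and Tle4, the rule named up to 4 genes per list with the largest ratios at a mean of at least 1 FPKM, and the 5 genes nearest in profile to a subunit gene with that mean and a log2 range of at least 0.5. Not all of these are described. Fcgr1, Irf5, Plac8, S100a8, S100a9, Mgl2, Sirpa, Xbp1, Il12rb1, Il23r, Stat4, Ifng, Il17a, Camp, Epx, Mcpt4, Krt20, Il7r, Apobr, Ccdc94 and Gm16712 were named outside it, after their values were seen. Older symbols in the files were matched through RefSeq synonyms. Positions are from GENCODE M21 (mm10), and promoter windows from RefSeq (GRCm38.p6), with entries for 3 of the 5 subunit genes. Python 3.11.15, numpy 2.4.6, pandas 2.3.3 and matplotlib 3.10.9 were used.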

Additional observations from a re-analysis of the deposited data

How the results depend on the processing

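The 5 subunit genes were recomputed in 3 contrasts under 6 other settings, of which the plain FPKM ratio was chosen after seeing the data. Of these 90 values none changed direction, and 80 stayed on the same side of 2-fold. A change of pseudocount cannot change the direction, so only the settings that rescale the libraries could have done so. In the library labelled Tle3cKO against WT, Il12b was past 2-fold with a pseudocount of 0.1 (log2 ratio -1.25) and with none (-1.29), and Il27 likewise (-1.27 and -1.41). Il27 in Tle4cKO against WT passed it too (-1.09 and -1.21), as did Il23a in Tle4cKO against the library labelled Tle3cKO (-1.14 and -1.27). In that last contrast Il12b fell short of 2-fold with a pseudocount of 5 (0.51) and with equal FPKM totals (0.97). A larger pseudocount shrinks ratios of low genes by construction.

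Counts of genes past 2-fold are given as higher and lower in the library labelled Tle3cKO against WT, in Tle4cKO against WT, and in Tle4cKO against the library labelled Tle3cKO. They were 24 and 23, 18 and 54, and 23 and 58. With a pseudocount of 0.1 they were 90 and 60, 55 and 104, and 50 and 145, and with 5 they were 7 and 10, 7 and 15, and 9 and 12. A mean of at least 5 FPKM gave 11 and 14, 6 and 23, and 11 and 28. Without a filter the counts that moved by over 1.5 times were 35 lower in the first, 32 higher in the second and 40 higher in the last. Equal totals gave 40 and 20 in the first contrast, and moved the median of all genes there from -0.01 to 0.08. At 1.5-fold the counts were 177 and 121, 134 and 189, and 99 and 238, and at 3-fold 5 and 8, 11 and 12, and 12 and 8. No replicate could be left out. No paired analysis was possible because each genotype is 1 library. The absolute fragment numbers behind these values are unknown, so no counting error can be given.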
